A study of Mus musculus with 6 samples.

Results

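miR-542-3p is a microRNA (miRNA) made from the 3′ arm of the Mir542 hairpin, and it was 1 of the 380 named miRNAs on a quantitative PCR panel run on RNA from mouse serum exosomes. It was found by its name in the deposited tables, and it was chosen by its measured Ct and delta Ct values, whose difference between the 2 groups of this series was already known. Its values are therefore given as a description. It was part of the fit over all miRNAs and counts in the shares called there, which serve only as background, and that fit is not used to support its difference. Of the 380 miRNAs, 123 had a threshold cycle (Ct) in every sample, and miR-542-3p was among them.

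Serum was taken 2 weeks after ACLT, read here as anterior cruciate ligament transection, a surgical model of joint instability that leads to osteoarthritis. There were 3 samples labelled Vehicle and 3 labelled OCExoInhib, and all 6 share the ACLT. The labels do not say what OCExoInhib is, and the known study behind the series describes an agent that blocks exosome release and is steered to osteoclasts, the cells that resorb bone. The labels give no strain, age, dose or untreated mice. The design text states that exosomal miRNA of 3 mice was pooled per group, and it does not say whether a group's samples stand for single animals or for repeat runs of 1 pool. P-values here therefore rest on a spread between samples that may be technical only. The panel measures no exosome protein, so the label of exosomes was not checked here.

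A mature miRNA is cut from 1 arm of a hairpin and guides a silencing complex to messenger RNAs that match its seed, bases 2 to 8. miR-542-3p is known to repress Birc5, which encodes the cell survival protein survivin, and has been reported to repress Bmp7, which encodes a bone-forming signal, and so to restrain osteoblasts, the cells that build bone. It lies in an X-linked cluster with miR-322 (the mouse counterpart of human miR-424), miR-503, miR-351 and the miR-450 group. miR-322 and miR-503 belong to the wider miR-15 and miR-16 family, and miR-503 has been reported to restrain osteoclast formation by repressing the receptor RANK. Exosomes in serum carry miRNAs from many tissues, and fewer vesicles from a source and less of a miRNA per vesicle cannot be told apart in such samples.

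The mature sequences below show how far miR-542-3p differs from the other arm of its hairpin, from cluster neighbours and from the panel miRNAs nearest to it in sequence (miR-101a) and in profile (miR-148a). Whether the assays tell them apart was not tested. They are the panel's own sequences, and those of the 2 miR-542 arms, miR-503 and miR-322 equal the RefSeq entries of build GRCm38.p6. Capitals mark the seed.
miR-542-3p: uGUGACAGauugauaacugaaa
miR-542-5p: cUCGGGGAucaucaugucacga
miR-503: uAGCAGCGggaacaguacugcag
miR-322: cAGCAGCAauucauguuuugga
miR-101a: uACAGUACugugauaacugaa
miR-148a: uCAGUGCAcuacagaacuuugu

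miR-542-3p is 22 bases long with the seed GUGACAG. None of the other panel miRNAs has this seed (0 of the other 379), and the RefSeq entries hold 1679 mature names, of which 1 has it, miR-542-3p itself. The nearest panel sequence is miR-101a at 7 single-base edits, which has a like 3′ end and a different seed. miR-101a had no Ct in any sample. The next are miR-101b, also without a Ct, and miR-452, both at 8 edits. miR-452 had a log2 difference of −0.54 between the groups, OCExoInhib minus vehicle, and did not pass (limma adjusted p 0.866). miR-542-3p is poor in G and C, with 7 of its 22 bases (31.8%) against a median of 45.5% over the 123 miRNAs with a Ct, of which 5 including itself have a share that low.

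The hairpin gene Mir542 lies on chrX:53049403-53049487, minus strand, in GRCm38.p6, and miR-542-3p is the part at chrX:53049415-53049436. It is printed here with both mature arms in capitals, the 5p arm first, to show how the 2 assayed arms sit in 1 precursor.
Mir542 hairpin: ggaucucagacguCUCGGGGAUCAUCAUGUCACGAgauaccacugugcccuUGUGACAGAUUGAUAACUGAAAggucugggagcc

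The RefSeq table places 0 other genes over Mir542. Within 6353 bases on the minus strand lie 7 miRNA genes. Mir450-2, Mir450-1 and Mir450b are on one side of Mir542, the nearest 1035 bases away. Mir351, Mir503 and Mir322 are on the other side, at 3788 to 4767 bases, and lie within the span of the long noncoding RNA gene C430049B03Rik.

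miR-542-3p stood high in every vehicle sample and about level with the normalizer wells in every OCExoInhib sample. A Ct is the PCR cycle at which the signal crosses a threshold, so a lower Ct is more RNA and 1 cycle is about 1 doubling. The Ct of miR-542-3p was 23.990, 22.722 and 25.102 in vehicle samples 1, 2 and 3. It was 30.437, 30.239 and 30.019 in OCExoInhib samples 1, 2 and 3. The groups did not overlap, and the latest vehicle value came 4.917 cycles before the earliest OCExoInhib value. This was not particular to miR-542-3p, which was chosen with its difference known. The Ct values of miR-148a, miR-16, miR-21 and let-7e did not overlap either, and those of miR-140 were apart in the other direction. Small differences could lack overlap as well. miR-190 had Ct 26.399 to 26.527 in vehicle and 25.866 to 26.005 in OCExoInhib samples, again in the other direction. The share of all miRNAs without overlap was not counted, so lack of overlap does not set miR-542-3p apart. No value was near the limit of 40 cycles or past Ct 35, where few template molecules remain, so both groups were measured and neither mean is only a bound.

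The authors' normalized value is the Ct minus that of a spike-in control, called delta Ct. For miR-542-3p it was −7.003, −7.847 and −6.090 in the vehicle samples. It was 0.087, −0.389 and 0.417 in the OCExoInhib samples. Mean delta Ct was −6.98 ± 0.879 for the vehicle group and 0.0383 ± 0.405 for the OCExoInhib group (SD, each n = 3). miR-542-3p thus came 6.98 cycles before the wells that set the normalization in vehicle samples and at almost the same cycle as they did in OCExoInhib samples.

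On the log2 scale the difference was −7.02, OCExoInhib minus vehicle, which is 129.6-fold lower in OCExoInhib. The authors' deposited table gives the same fold, 129.637 for vehicle over OCExoInhib. Each of the 9 pairs of a vehicle and an OCExoInhib sample showed the lower level in OCExoInhib. The smallest pair difference was 52.0-fold, between vehicle 3 and OCExoInhib 2, and the largest was 307.4-fold, between vehicle 2 and OCExoInhib 3. The difference was 10.3 times the pooled SD within groups of 0.684. The fold thus varied several-fold between pairs, while its direction was the same in all of them. The 9 pairs cross the same 6 samples and are not separate measurements. miR-542-3p was chosen with this difference known, so the pairs and the SD ratio describe the difference and do not support it.

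**Figure D1:**
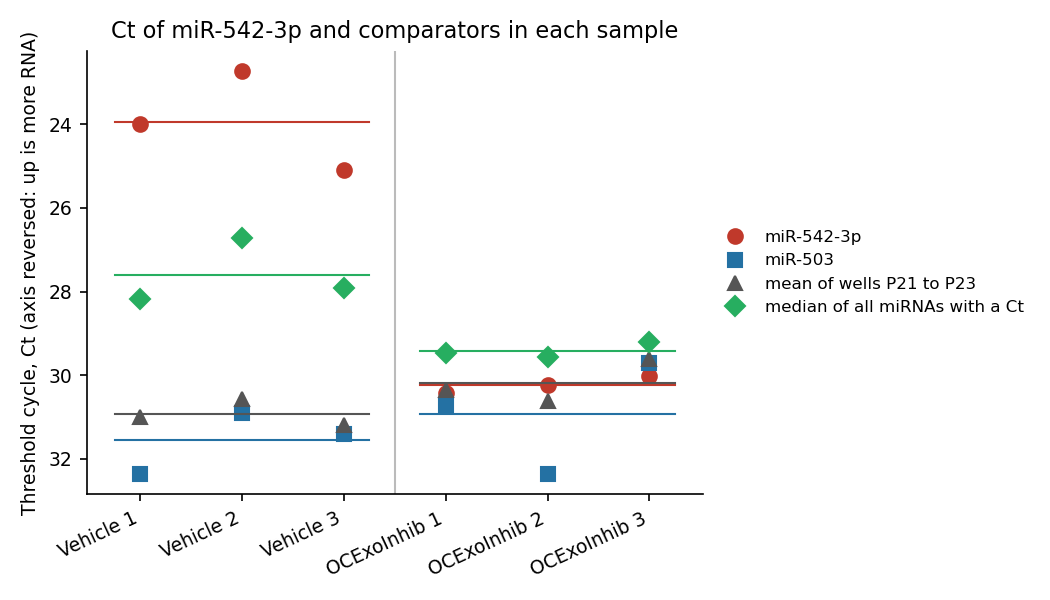
Threshold cycle (y axis, cycles, reversed so that up is more RNA) in each of the 6 samples (x axis) for miR-542-3p, its cluster neighbour miR-503, the mean of reference wells P21 to P23 and the median of the 123 miRNAs; short lines are group means. miR-542-3p sits between Ct 22.722 and 25.102 in vehicle samples and between 30.019 and 30.437 in OCExoInhib samples, where it lies near the wells. miR-503 lies near it in OCExoInhib 1 and 3 and 2.129 cycles later in OCExoInhib 2.

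The vehicle samples differed among themselves more than the OCExoInhib samples did. The SD of the Ct was 1.19 cycles in the vehicle group and 0.209 cycles in the OCExoInhib group (each n = 3). Over the 123 miRNAs the median SD was 0.944 in vehicle and 0.870 in OCExoInhib samples. The OCExoInhib SD of miR-542-3p was the 12th smallest of the 123, and its vehicle SD was the 78th smallest. Vehicle 2 held the most miR-542-3p and vehicle 3 the least, 2.380 cycles apart in Ct and 1.757 apart in delta Ct.

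The rank within a sample does not depend on any normalizer, although assays may amplify with different efficiency, so ranks of different miRNAs are only roughly ranks of abundance. Counted from the lowest Ct, miR-542-3p was 12th, 7th and 20th of 123 in vehicle samples 1, 2 and 3. It was 76th, 74th and 80th in OCExoInhib samples 1, 2 and 3. It therefore stood among the first 20 of the list in vehicle samples and in the lower part of the list in OCExoInhib samples. By mean Ct it was 13th in vehicle, between miR-547 (23.9) and miR-92b (24.04), both within its own SD. By mean Ct it was 71st in OCExoInhib, between miR-30c (30.2) and let-7a (30.3), also within their spread. Of the 122 other miRNAs, 43 had a higher Ct than miR-542-3p in all vehicle samples and a lower one in all OCExoInhib samples. The opposite was shown by 0. This imbalance largely follows from choosing miR-542-3p with its fall known. In all 6 samples 5 miRNAs had a lower Ct and 25 a higher one.

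Taken as a share of the summed signal of the 123 miRNAs, 2 to the power of minus delta Ct, miR-542-3p made up 2.01%, 2.96% and 0.767% in vehicle samples 1, 2 and 3. It made up 0.0123%, 0.0312% and 0.0159% in the OCExoInhib samples. The share also does not depend on the normalizer and moved the same way in all samples. Its Ct lay 4.177, 3.992 and 2.801 cycles before the sample's median Ct in vehicle samples. It lay 0.958, 0.675 and 0.818 cycles after the median in OCExoInhib samples. Against the sample median the difference was 4.47 cycles, smaller than the 7.02 against the wells. The median Ct itself was 27.6 ± 0.774 for the vehicle group and 29.4 ± 0.190 for the OCExoInhib group (SD, each n = 3).

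**Figure D2:**
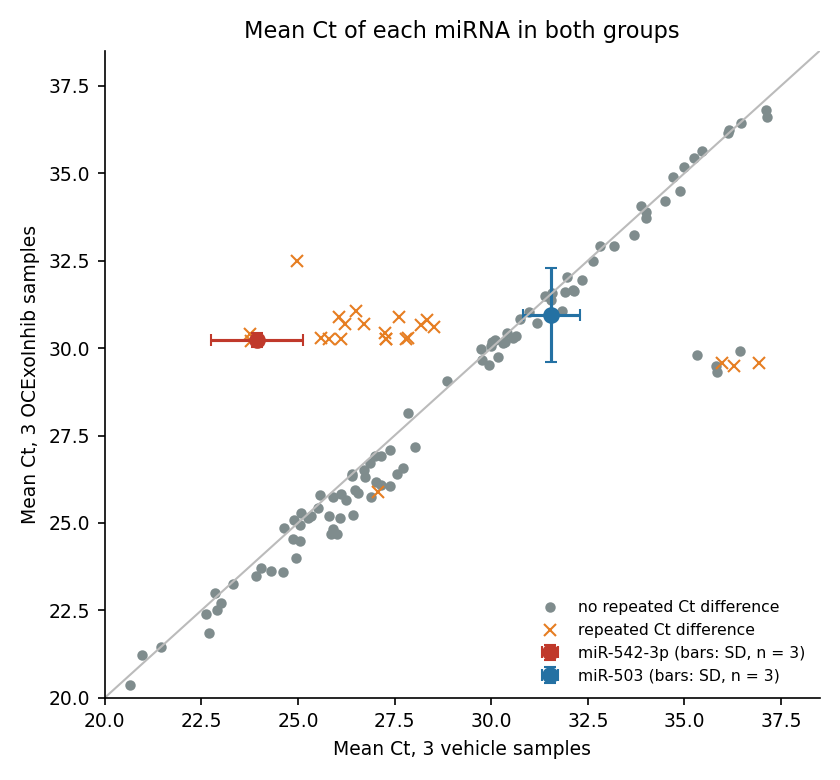
Mean Ct over 3 OCExoInhib samples (y axis, cycles) against mean Ct over 3 vehicle samples (x axis, cycles) for the 123 miRNAs; the line marks equal means, bars on miR-542-3p and miR-503 are SDs (n = 3), and crosses mark miRNAs that carry a repeated Ct difference. miR-542-3p, at 23.9 and 30.2, lies far above the line as a circle among crosses, and miR-503, at 31.6 and 30.9, lies near the line.

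The wells that set the normalization differed little beside miR-542-3p. The files do not name the RNA in wells P21 to P23. Their mean Ct was 30.9 ± 0.318 for the vehicle group and 30.2 ± 0.531 for the OCExoInhib group (SD, each n = 3), a difference of −0.725 cycles. With raw Ct and no normalizer the log2 difference of miR-542-3p was −6.29. Against single wells it was −7.30 (P21), −7.50 (P22) and −6.26 (P23). The lowest fold over all settings was 22.2, with each sample centred on its median, and the highest was 180.8, against well P22. With the global mean it was 57.3-fold and with quantile normalization 65.4-fold. The level was thus lower in OCExoInhib under every normalization tried, while the normalizer moved the fold between 22.2 and 180.8.

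**Figure D3:**
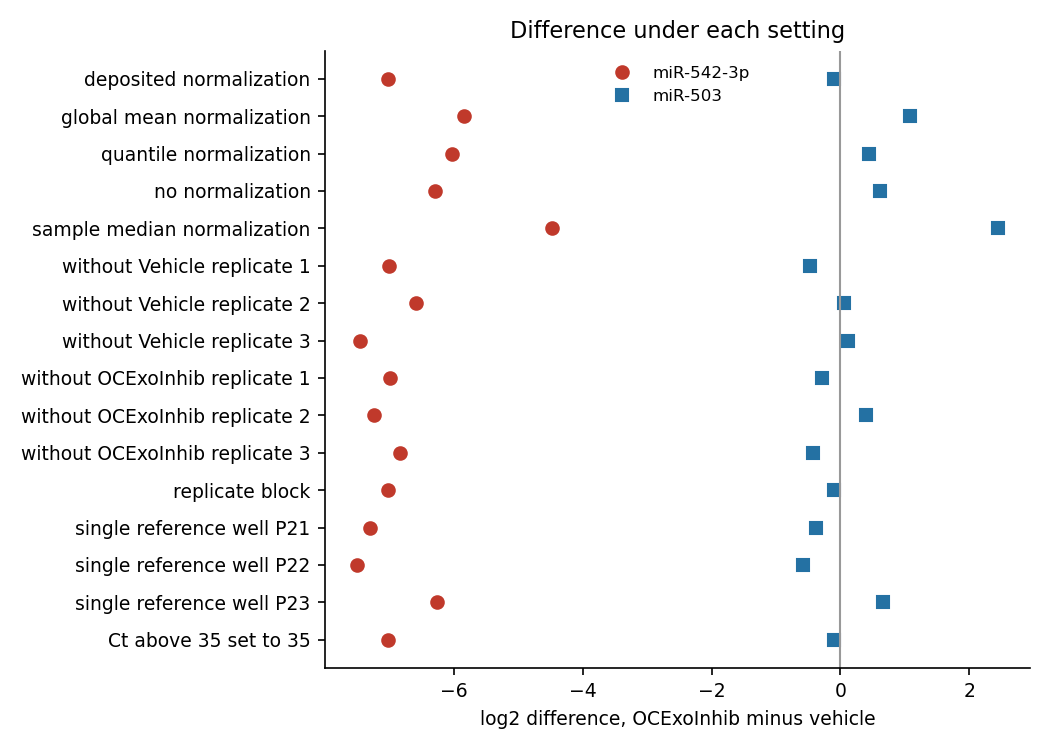
Log2 difference, OCExoInhib minus vehicle (x axis), of miR-542-3p and miR-503 under each normalization, with each sample left out and with other settings (y axis). miR-542-3p stays between −7.50 and −4.47, and miR-503 falls on both sides of 0.

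Single samples moved the difference less than the normalizer did. Without vehicle 2, its highest sample, the log2 difference of miR-542-3p was −6.58. Without vehicle 3, its lowest vehicle sample, it was −7.46. Leaving out an OCExoInhib sample gave −7.23 to −6.83. The difference ranked 4th from the lowest among the 115 miRNAs tested (those with a Ct under 35 in at least 3 samples), and its rank was 2nd to 4th with samples left out. Next to it in that order were miR-148a (−7.14) and miR-652 (−5.54). The gap to miR-148a is well within the spread of either, so their order is not resolved.

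Across the series many miRNAs that differed between groups share the same Ct difference between 2 samples of a group, to within 0.0015 cycles. A difference was counted as repeated where at least 5 miRNAs shared it, and 23 of the 123 miRNAs carried one. For example, 17 miRNAs had vehicle 1 later than vehicle 3 by 0.939 cycles. miR-542-3p carried none. Its vehicle 1 minus vehicle 3 difference was −1.112 cycles, of the opposite sign, and no other miRNA lay within 0.0015 cycles of it. Its OCExoInhib differences were 0.198 (1 minus 2), 0.418 (1 minus 3) and 0.220 (2 minus 3), against the repeated values of 0.570, 1.886 and 1.316. In all 6 within-group pairs 0 other miRNAs shared its difference, and the nearest one was 0.0030 cycles away. Of the 115 miRNAs tested, limma placed 20 lower in OCExoInhib, or 17.4%, and 7 higher. With sample medians the split was 11 lower and 56 higher, and with quantile normalization it was 9 and 7. These counts include miR-542-3p, whose place among them follows from how it was chosen, and nothing is read from it. The 19 others placed lower on the deposited normalization all carried a repeated difference. How the repeated differences and values arose was not tested.

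The other miRNAs of the cluster were examined next, since they lie beside Mir542. Their values did not enter the choice of miR-542-3p, but the cluster was listed with earlier results of these data known. By name, 8 of them were on the panel. Of these, 7 had no Ct in any sample. They were miR-542-5p from the other arm of the same hairpin, miR-322, miR-351, and both arms of miR-450a and of miR-450b. miR-542-3p was thus measured in every sample while its partner arm was not, in vehicle samples as well. A missing Ct sets no level, since the limit of detection of each assay is not given.

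miR-503 was the 1 cluster neighbour with a Ct. Its delta Ct was 1.373, 0.335 and 0.205 in vehicle samples and 0.382, 1.740 and 0.101 in OCExoInhib samples. The groups overlapped. Its log2 difference was −0.10 (SE 0.79, limma adjusted p 0.922), so 0 of the 1 tested neighbour passed, with 0 at an unadjusted p under 0.05, against 23.5% of all tested miRNAs in either direction, 17.4% lower and 6.09% higher. The direction of this small difference depended on the normalizer. It was 1.07 with the global mean, 0.62 with no normalization and 2.44 with sample medians, where it passed (limma adjusted p 0.0249, and up to 0.995 over the other settings).

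The Ct distance between miR-503 and miR-542-3p needs no normalizer. miR-503 came 8.376, 8.182 and 6.295 cycles later than miR-542-3p in vehicle samples. It came 0.295 and 2.129 cycles later in OCExoInhib samples 1 and 2 and 0.316 cycles earlier in OCExoInhib 3. The mean distance was 7.62 ± 1.15 cycles for the vehicle group and 0.703 ± 1.27 for the OCExoInhib group (SD, each n = 3), a change of −6.92 cycles. In these samples the 2 miRNAs of neighbouring genes stood far apart in vehicle and closer together in OCExoInhib. Mean Ct differed by −0.62 cycles for miR-503 and by 6.29 for miR-542-3p, OCExoInhib minus vehicle. The change in distance therefore mostly restates the difference known when miR-542-3p was chosen.

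A list of 30 other miRNAs reported to restrain osteoblast differentiation gives the setting for a bone-related role. By exact name 26 were on the panel, 12 of them without a Ct, and 14 were tested. The listed miR-125b and miR-34b did not match the panel names miR-125b-5p and miR-34b-5p. Both of these had a Ct and are left out of the counts and the median below. miR-125b-5p had mean Ct 27.8 in vehicle and 30.3 in OCExoInhib samples, was placed lower and carried a repeated Ct difference. For miR-34b-5p the means were 34.7 and 34.9. Of the 14 matched and tested, 4 fell in OCExoInhib (28.6%, against 17.4% of all tested) and 0 rose (6.09% of all tested). The median log2 difference of the 14 was −0.73, against −0.54 over all 115 miRNAs. The 4 were miR-30d, which has been reported to repress the osteoblast factor Runx2 (log2 difference −7.35, SE 0.97, limma adjusted p 3.63e-05), miR-30a of the same family (−3.98, SE 0.90, adjusted p 0.00255), miR-214, which represses the osteoblast factor Atf4 (−3.20, SE 0.94, adjusted p 0.0174), and miR-133a, best known from muscle (−2.82, SE 0.84, adjusted p 0.0184). All 4 carried a repeated Ct difference, and miR-542-3p did not. With global mean, quantile or no normalization 1 of the 14 passed, miR-30d each time. With sample medians 5 passed, miR-30d lower and 4 others higher. Without OCExoInhib 1, and without OCExoInhib 3, 2 passed each time.

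The miR-214 delta Ct values were −1.373, −4.313 and −2.511 in vehicle and 1.797, −1.056 and 0.660 in OCExoInhib samples, so its groups lay close together. Those of miR-30d were −8.248, −4.832 and −8.370 in vehicle and 0.352, 1.021 and −0.785 in OCExoInhib samples. In vehicle samples 1 and 3 miR-30d came earlier than miR-542-3p, and in vehicle 2 it came later. The other 10 tested members, among them miR-141 (0.43), miR-206 (−0.28) and miR-34c (−0.41), had log2 differences from −0.86 to 0.43 and did not pass.

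Likeness of profile was measured as the root mean square difference in delta Ct over the 6 samples after each miRNA was centred on its own mean, a measure that a shift of a whole sample does not change. The 5 nearest were miR-148a (0.786 cycles), miR-16 (1.16), miR-21 (1.23), let-7e (1.27) and miR-378 (1.48), and the sixth was miR-15a (1.53). The median over all other miRNAs was 3.41. All 5 share the large step between groups, which sets most of this likeness, and all 5 carried a repeated Ct difference. The OCExoInhib Ct values of let-7e equal those of miR-145 and miR-151-3p, and those of miR-16 nearly equal those of miR-125b-5p. With any 1 sample left out, 4 or 5 of the nearest 5 were the same.

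miR-148a is known to promote osteoclast differentiation. Its Ct values were 25.377, 21.572 and 24.439 in vehicle and 30.281, 30.408 and 29.949 in OCExoInhib samples. In OCExoInhib the 2 miRNAs had means of 30.21 for miR-148a and 30.23 for miR-542-3p. In vehicle samples miR-148a had more signal than miR-542-3p in samples 2 and 3 and less in sample 1. miR-16, miR-21, let-7e and miR-378 had later vehicle means, between 25.6 and 26.2, and OCExoInhib means between 30.3 and 30.7. In OCExoInhib samples the group means of the 5 miRNAs and of miR-542-3p thus lay within 0.5 cycles of the wells' mean Ct of 30.2. Single samples lay further off, with miR-378 at delta Ct 1.700, 0.852 and −1.096. Such closeness was not limited to the nearest profiles. Mean Ct went from 23.8 in vehicle to 30.4 in OCExoInhib for miR-30d, and from 27.3 to 30.3 for let-7a. Late miRNAs came to nearby means from the other side. They included miR-28 (36.4 to 29.9), miR-140 (35.9 to 29.3) and miR-501-3p (36.9 to 29.6). miR-107 had a mean further off, 32.5, from widely spread values of 32.361, 36.996 and 28.148 in OCExoInhib samples 1, 2 and 3. miR-547, with little difference between groups, stayed at 23.5. What the closeness of the means comes from was not tested.

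**Figure D4:**
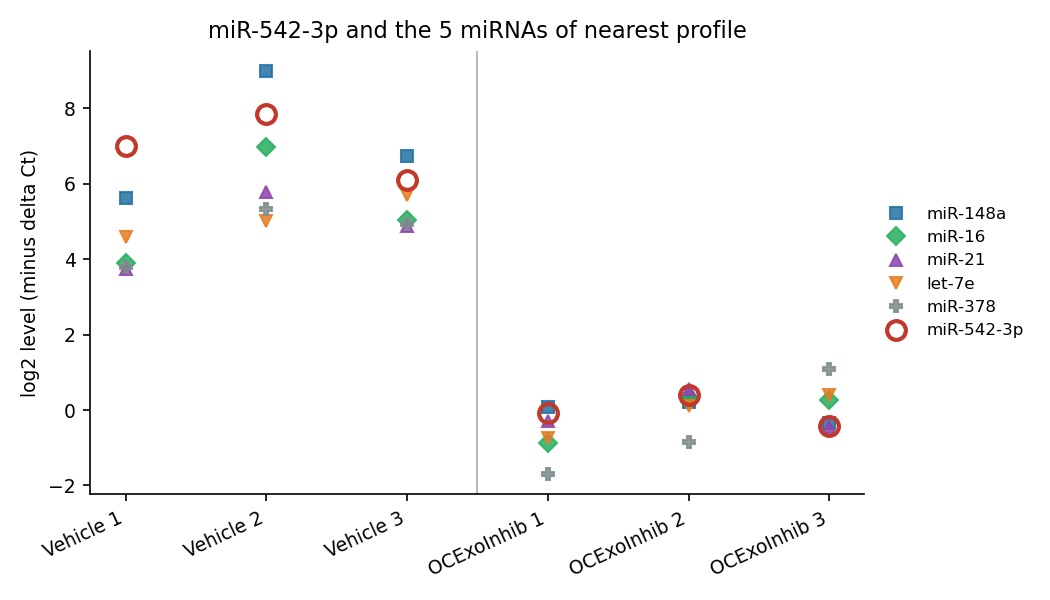
Log2 level relative to wells P21 to P23 (y axis, minus delta Ct) in each of the 6 samples (x axis) for miR-542-3p (open circles) and the 5 miRNAs nearest to it in profile. All 6 lie between 3.750 and 8.997 in vehicle samples and between −1.700 and 1.096 in OCExoInhib samples.

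Markers of cells that give RNA to serum were read from lists, as summed levels relative to the wells. Erythrocyte miRNAs with a Ct (3 of 6, with miR-451 and miR-486 among those without) summed to 44.0 to 262 in vehicle and 42.0 to 89.3 in OCExoInhib samples. Platelet miRNAs (3 of 5, miR-126-3p without a Ct) summed to 14.1 to 55.2 and 1.02 to 1.86, and miR-21, one of them, is also among the nearest profiles. Liver miRNAs (2 of 3, miR-122 without) summed to 46.3 to 177 and 24.4 to 84.2. Muscle miRNAs (2 of 4, miR-1 and miR-133b without) summed to 3.38 to 7.75 and 0.468 to 2.09. Leukocyte miRNAs (2 of 5, miR-142-3p and miR-155 among those without) summed to 12.3 to 47.9 and 12.7 to 35.4. Neither endothelial miRNA had a Ct. The platelet and muscle sums were lower in OCExoInhib, each mainly through 1 member, where 17.4% of all tested miRNAs were placed lower. The part of these sums in the difference of miR-542-3p was not tested. In the platelet, muscle, erythrocyte and liver lists 1 member each stood apart. Among platelet miRNAs the log2 difference was −4.87 for miR-21, −0.81 for miR-199a-3p (limma adjusted p 0.866) and −0.70 for miR-223, which was not tested because its Ct values were late. Among muscle miRNAs it was −2.82 for miR-133a and −0.28 for miR-206 (limma adjusted p 0.870). Among erythrocyte miRNAs it was −5.41 for miR-16 (limma adjusted p 0.000193), −0.56 for miR-144 and −0.39 for miR-92a. Among liver miRNAs it was −5.27 for miR-194 (limma adjusted p 0.000296) and −0.16 for miR-192. miR-21, miR-133a, miR-16 and miR-194 carried a repeated Ct difference, and the other members named with a Ct did not.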

How the data were processed

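RNA was column-purified, reverse transcribed and run in a SYBR Green PCR of 40 cycles, per the labels' protocols. The authors deposited raw Ct values, a score per well with no normalization, for 384 wells. Their normalized values are on a log2 scale, deposited as spike-in-normalized differences per the file headers, and equal Ct minus the mean of wells P21 to P23. Their deposited fold is a ratio with vehicle as numerator. No source used here gives the fluorescence threshold, or how a well came to lack a Ct. Wells were joined to names by position on the plate.

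Levels are minus the deposited delta Ct. miR-542-3p is described without using a test of it, although it was in the fit and in the counts over all miRNAs. The fit was made with limma 3.58.1 (R 4.3.3), fitted by lmFit, moderated by eBayes and two-sided, without a block. P-values were adjusted by Benjamini-Hochberg over the 115 miRNAs with Ct under 35 in at least 3 samples, with a threshold of 0.05. Tables were made in Python 3.11.15. On simulated data (50 sets of 115 miRNAs) the test called 63.6% of log2 changes of 3 and 0.632% of unchanged miRNAs. With 3 samples a group, the number of samples limits the precision.

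The miRNA and the lists were chosen with earlier results of these data known. Named miRNAs are miR-542-3p, its cluster, list members that passed, the 5 nearest profiles, rank neighbours and the 3 nearest sequences. Others are examples chosen after their values were seen: 3 list members that did not pass, the marker miRNAs, the sixth nearest profile and miRNAs named for their Ct values. Of the panel's 380 sequences, 292 equal a RefSeq mature sequence. Deviations from the group means correlated by 0.0587, 0.0177 and 0.117 between samples of the same number, and the number was not used as a pair.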

Additional observations from a re-analysis of the deposited data

How the results depend on the processing

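The log2 difference of miR-542-3p (−7.02) kept its sign in all settings tried. It was −5.84 with the global mean, −6.03 with quantile, −6.29 with no normalization, −4.47 with sample medians and −6.26 against well P23, each further than 1 SD from the main value, and −7.46 to −6.58 with samples left out. These normalizations move every miRNA of a sample: the median over tested miRNAs was −0.54 as deposited, 0.64 with the global mean, 0.20 with quantile, 0.18 with none and 2.00 with sample medians.

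All tested miRNAs called numbered 27 (20 lower, 7 higher), 16 with quantile (9 and 7), 67 with sample medians (11 and 56) and 24 to 27 with samples left out. Leaving out miRNAs with a repeated Ct difference, a choice made after seeing the data, gave 5, because it removes most of the called miRNAs. Osteoblast-restraining calls (4, on names matched exactly, so without miR-125b-5p) were 1 with global mean, quantile or no normalization. They were 5 with sample medians (1 lower, 4 higher), 2 to 4 with samples left out and 0 of those without a repeated difference. Cluster calls (0) were 1 with sample medians, and 0 to 0 with samples left out. miR-503 turned from −0.10 to 1.07 (global mean), 0.45 (quantile), 0.62 (none), 2.44 (sample medians), 0.66 (well P23) and up to 0.40 with samples left out (range −0.47 to 0.40; 0.048 without vehicle 2, 0.11 without vehicle 3). Apart from the exclusion, the cause was not tested. With the sample number as a replicate block the difference of miR-542-3p was −7.02 and 25 miRNAs were called. This pairing left the calls in the cluster and the osteoblast-restraining list at 0 and 4.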
